A study of Mus musculus with 10 samples.

Results

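The insulin-like growth factor 1 (IGF1) axis of the mouse aorta was examined 7 days after elastase infusion through 9 genes, the ligand Igf1, its receptor Igf1r and the binding proteins Igfbp1 to Igfbp7. Members were all non-control probes on the array whose gene name equalled one of these symbols. This gave 14 of 55681 probes and 9 of 35527 gene names, and 8 of the 9 were among the 22520 gene names bright enough to be tested. In the aneurysmal aortas Igf1 rose 2.84-fold and Igfbp3 rose 2.35-fold, whereas Igf1r fell to a level 2.13-fold below the sham aortas, Igfbp5 to a level 2.56-fold below and Igfbp6 to a level 1.75-fold below. Igfbp2, Igfbp4 and Igfbp7 did not pass the test, and Igfbp1 gave no signal well above background.

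IGF1 is a small secreted growth factor that binds the receptor tyrosine kinase IGF1R, which signals through insulin receptor substrate (IRS) adaptors to PI3 kinase and AKT. In the fluid around cells most IGF1 is held by IGF-binding proteins, secreted carriers that can keep the ligand from its receptor or release it when they are cut by proteases. Vascular smooth muscle cells carry the receptor, and IGF1 is a well-known growth and survival factor for them, while macrophages and fibroblasts are known local sources of the ligand.

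The samples were infrarenal aortas of 10-week-old male C57BL/6J mice on a normal diet, 5 infused with saline (sham) and 5 with 1.5 U/mL porcine pancreatic elastase (PPE) for 5 min, with 1 aorta per array. The labels name no engineered allele in either group. PPE infusion is an injury model in which the enzyme degrades the elastic fibres of the wall and the segment dilates. Each aorta's RNA was labelled with Cy5 (red) and hybridised against the same commercial mouse reference RNA in Cy3 (green), with no dye swap, so every value is a log2 ratio of aorta over reference, and a fold change is the PPE mean minus the sham mean of these ratios. Because each probe has its own ratio to the reference, levels were compared between arrays and never between genes. The 10 arrays lay on 5 slides scanned on 2 days. Sham 1, PPE 1 and PPE 2 were on slide 1, which alone was scanned on the second day. Slide 2 carried a pair of each group (sham 2 and 3, PPE 3 and 4), and sham 4, sham 5 and PPE 5 had a slide each. The share of red spots well above background ran from 37.6% in sham 5 to 65.8% in PPE 1.

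The tissue carried smooth muscle RNA as labelled, with 7 of 8 smooth muscle markers above background on all 10 arrays. Their mean log2 ratio was 3.35 to 4.57 in the sham and 1.66 to 2.89 in the PPE aortas, and 7 of 8 fell. The macrophage markers moved the other way, with 0.59 to 1.15 in sham, 2.70 to 3.72 in PPE and 7 of 8 risen. The fibroblast markers stood at 2.63 to 3.05 in sham and 3.50 to 4.42 in PPE, with 4 of 7 risen. The neutrophil markers ran from 0.79 to 1.01 in sham and from 3.67 to 4.24 in PPE, with 3 of 4 risen, and the T cell markers from -0.81 to 0.26 and from 0.90 to 1.96, with 2 of 5 risen. None of the 6 endothelial, 5 skeletal muscle and 4 tested B cell markers passed the threshold, nor did 5 of 6 adipocyte markers, the sixth being lower. These levels were not stable, however. The adipocyte markers stood at 4.90 to 6.02 in sham and 3.83 to 5.32 in PPE, with a median log2 fold change of -0.74. The skeletal muscle markers varied widely within both groups, from 1.95 to 5.01 in sham and from 1.24 to 4.67 in PPE. In whole tissue, fewer cells of a type and less RNA per cell cannot be told apart, and the part of these shifts in the results for the IGF genes was not tested.

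The sequences shown first are those behind the probes on which the Igf1 and Igfbp2 results turn, as stretches of 30 of their 60 bases, and the promoters of 4 genes that moved in opposite directions. The array files assign the Igf1 probes to 2 RefSeq transcript variants, and the positions on mm9 are also those the files give. Whether a probe detects its own variant only was not tested. The variant 1 probe lies at chr10:87393581-87393640, starting at base 909 of the transcript, and the variant 2 probe at chr10:87378456-87378515, starting at base 1027. The Igfbp2 probe, at chr1:72898677-72898736, ends in an in-frame stop triplet, written in capitals, with 0 other stops in that frame. Which exon or UTR each probe lies in was not annotated here. The first 30 bases of both Igf1 probes and the last 30 of the Igfbp2 probe are as follows.
Igf1 variant 1: agtccaataacattacaaagatgggcattt
Igf1 variant 2: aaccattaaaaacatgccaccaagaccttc
Igfbp2: ggtggggcccatgcccaaagtgtgcagTAA

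The promoter sequences are the 250 bases before the RefSeq start of the gene on build GRCm38.p6, 5′ to 3′ on the gene's strand, with any motif match in capitals. That build differs from the mm9 positions of the probes, and no position was converted between them. The Igf1 window lay at chr10:87860861-87861110 on the plus strand, the Igf1r window at chr7:67952007-67952256 on the plus strand, the Igfbp3 window at chr11:7213924-7214173 on the minus strand and the Igfbp5 window at chr1:72874866-72875115 on the minus strand.
Igf1: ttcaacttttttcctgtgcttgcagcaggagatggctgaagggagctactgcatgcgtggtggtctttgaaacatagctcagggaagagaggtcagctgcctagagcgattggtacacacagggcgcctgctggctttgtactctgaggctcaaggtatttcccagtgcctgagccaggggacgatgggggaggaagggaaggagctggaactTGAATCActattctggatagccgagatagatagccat
Igf1r: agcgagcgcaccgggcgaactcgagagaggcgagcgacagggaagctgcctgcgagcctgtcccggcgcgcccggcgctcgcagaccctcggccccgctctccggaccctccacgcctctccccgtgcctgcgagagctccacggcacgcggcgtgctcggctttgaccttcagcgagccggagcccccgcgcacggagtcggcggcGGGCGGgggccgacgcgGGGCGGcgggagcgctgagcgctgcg
Igfbp3: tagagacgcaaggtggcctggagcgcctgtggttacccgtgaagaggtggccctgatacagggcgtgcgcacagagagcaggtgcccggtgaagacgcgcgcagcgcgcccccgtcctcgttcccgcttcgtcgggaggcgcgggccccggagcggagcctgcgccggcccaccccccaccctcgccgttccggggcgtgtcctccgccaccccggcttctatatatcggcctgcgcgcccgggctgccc
Igfbp5: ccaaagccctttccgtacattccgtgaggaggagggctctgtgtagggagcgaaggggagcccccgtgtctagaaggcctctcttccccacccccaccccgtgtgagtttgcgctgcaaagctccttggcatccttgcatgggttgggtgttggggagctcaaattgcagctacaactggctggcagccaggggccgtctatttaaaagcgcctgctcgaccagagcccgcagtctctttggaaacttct

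Base composition separated the ligand and receptor windows, with 52.8% G and C for Igf1 and 77.6% for Igf1r. The windows of Igfbp3 and Igfbp5 held 73.2% and 58.8%. Motifs were sought on both strands. Of TATA boxes only the spelling TATAAA was sought, so other spellings were not looked for. The Igf1r window held GGGCGG, the core of the binding site of SP1, at 2 places, 43 and 26 bases before the start, and 32.7% of all 32851 promoter windows of this length held it. The Igf1 window held a match to TGANTCA 37 bases before the start, as did 6.75% of all windows. This pattern is wider than the site of AP-1 factors, which has C or G as its middle base. The Igf1 match, TGAATCA, has A there and is not that site. The TATA sequence TATAAA (12.4% of all windows), TTCNNNGAA (the site of STAT factors, 7.02%), TTGCNNAA (the site of C/EBP factors, 9.56%) and the CArG box of serum response factor (1.47%) had no match in any of the 4 windows, and the Igfbp3 and Igfbp5 windows held none of the 6 motifs. Among the windows not printed, GGGCGG matched at 4 places for Igfbp7 and at 3 in an Igfbp2 window. TATAAA matched at 1 place each for Igfbp4 and Igfbp6, and TGANTCA, as TGAGTCA, at 1 place in another Igfbp2 window. A match is a description of letters in a window and not of a bound factor.

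**Figure D1:**
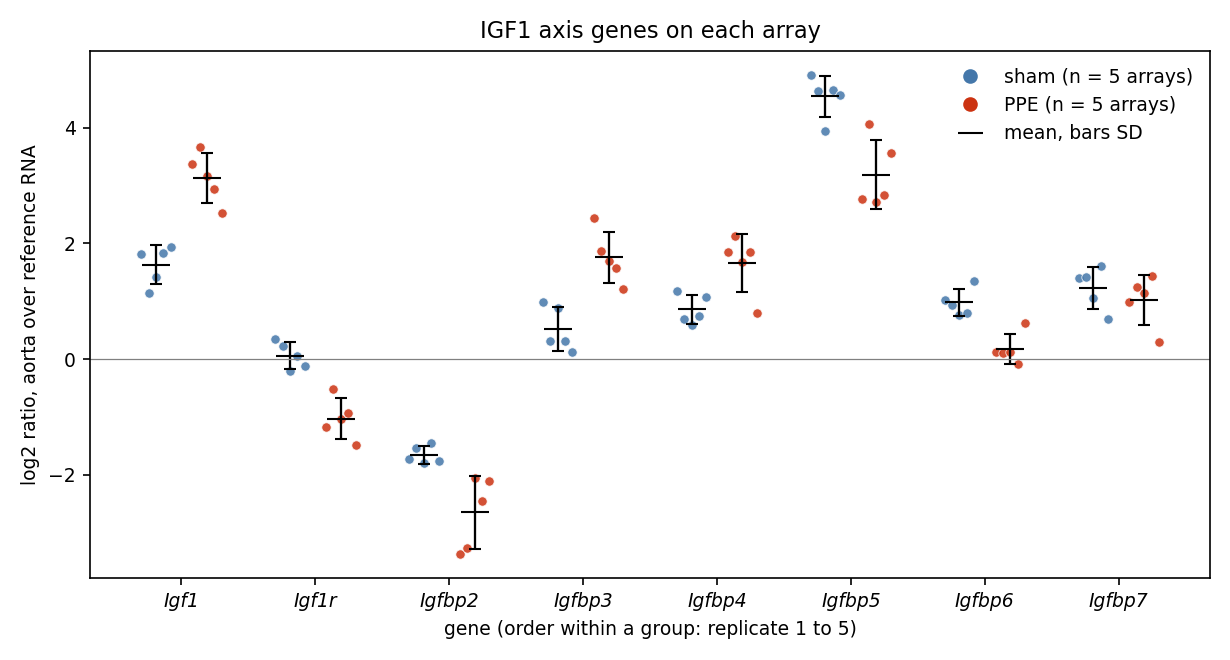
Log2 ratio of aorta over reference RNA (y axis) for the 8 tested genes (x axis) on each array, 5 sham in blue and 5 PPE in red, with the group mean and SD. The groups are apart for Igf1, Igf1r, Igfbp2, Igfbp3 and Igfbp6, and they overlap for Igfbp4, Igfbp5 and Igfbp7. Heights of different genes are not comparable, since each gene has its own ratio to the reference.

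Igf1, the ligand, was higher in every PPE aorta than in any sham aorta. Its representative probe, the brightest of 5, gave log2 ratios of 1.82, 1.14, 1.43, 1.84 and 1.94 in sham 1 to 5 and 3.37, 3.67, 3.17, 2.95 and 2.53 in PPE 1 to 5. The lowest PPE array, PPE 5, stood above the highest sham array, sham 5. The means were 1.63 ± 0.34 in sham and 3.14 ± 0.43 in PPE (SD, n = 5 each), a log2 fold change of 1.50 (SE 0.22, 95% interval 1.02 to 1.99, limma adjusted p = 0.000274). The difference lay in the aorta channel, where it was 1.53, and not in the reference channel, where it was 0.02. Within slide 1 it was 1.70 and within slide 2 it was 1.77. Two-sided exact permutation of the 10 arrays gave p = 0.00794, the smallest that 5 against 5 arrays allow.

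All 5 Igf1 probes were called higher, where 12.8% of the 30836 tested probes were higher and 9.15% lower. The 4 variant 1 probes changed by 1.51 (base 889), 1.50 (base 909), 1.76 (base 3252) and 1.75 (base 6909) on the log2 scale, with limma adjusted p of 0.000411, 0.000287, 0.00481 and 7.6e-05 over probes. The first pair share 40 bases and are not separate measurements of the transcript. The variant 2 probe read 0.48, 0.22, 0.14, 1.06 and 0.66 in sham 1 to 5 and 1.85, 2.14, 1.23, 0.91 and 1.43 in PPE 1 to 5. PPE 4 lay under sham 4, so here the groups overlapped, as they did for the base 3252 probe. The change of the variant 2 probe was 0.997 (limma adjusted p = 0.00784), smaller than that of any variant 1 probe.

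Whether the probes assigned to the 2 variants changed unequally was tested within arrays, a comparison chosen after the values were seen. The mean of the 4 variant 1 probes minus the variant 2 probe was 1.01 ± 0.28 in sham (0.65 to 1.34) and 1.65 ± 0.38 in PPE (1.02 to 1.999; SD, n = 5 each). The PPE minus sham difference of 0.63 had a two-sided exact permutation p of 0.0238. In the red channel alone it was 0.66 (exact permutation p = 0.0317). The ranges of the groups overlapped, and the comparison rests on 1 variant 2 probe with 2 spots per array.

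**Figure D2:**
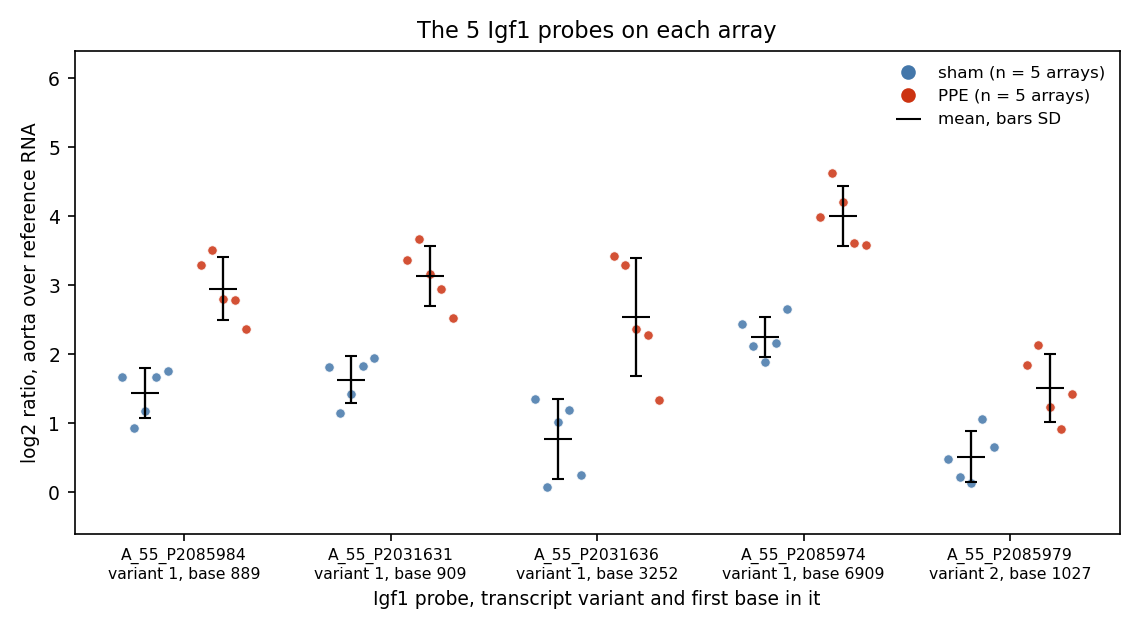
Log2 ratio of aorta over reference RNA (y axis) for the 5 Igf1 probes (x axis, with transcript variant and first base) on each array, 5 sham in blue and 5 PPE in red, with mean and SD. Every probe has the higher mean in PPE, and the variant 2 probe at the right has the smallest change, 0.997 against 1.50 to 1.76 for variant 1.

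Igf1r, the receptor tyrosine kinase for IGF1, moved opposite to its ligand. Its 1 probe (chr7:75378461-75378520, mm9) read 0.35, 0.23, -0.21, 0.06 and -0.12 in sham 1 to 5 and -1.18, -0.51, -1.04, -0.93 and -1.49 in PPE 1 to 5. All PPE aortas lay below all sham aortas, PPE 2 being the nearest to them. The means were 0.06 ± 0.23 and -1.03 ± 0.36 (SD, n = 5 each), a log2 fold change of -1.09 (SE 0.18, 95% interval -1.48 to -0.70, limma adjusted p = 0.00061, exact permutation p = 0.00794). It was -1.19 within slide 1 and -0.996 within slide 2. Part of it came from the reference channel, with -0.85 in red and 0.24 in green. In the red channel alone the call was lost (limma adjusted p = 0.0353).

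Of the 8 tested genes 2 were higher and 3 lower at a limma adjusted p below 0.01, where 13.8% of all 22520 tested gene names were higher, 9.96% lower and 23.8% either. Groups did not overlap for 5 of the 8, against 25.5% of all names. The median log2 fold change was -0.51 over the 8 genes and 0.02 over all names. The binding proteins split in direction, with 1 of 6 tested higher and 2 of 6 lower. With each array centred on its median in place of loess, 0 of the 8 genes passed the threshold, and the median of all names moved to 0.41. Relative to that median Igf1 stood at 1.64, Igf1r at -0.83, Igfbp3 at 0.93, Igfbp5 at -1.09 and Igfbp6 at -0.33. Igfbp2 stood at -0.77, Igfbp4 at 0.99 and Igfbp7 at -0.52. The SE of the called genes grew as well, from 0.22 to 0.64 for Igf1 and from 0.18 to 0.63 for Igf1r. It went from 0.23 to 0.50 for Igfbp3, from 0.27 to 0.62 for Igfbp5 and from 0.15 to 0.47 for Igfbp6.

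**Figure D3:**
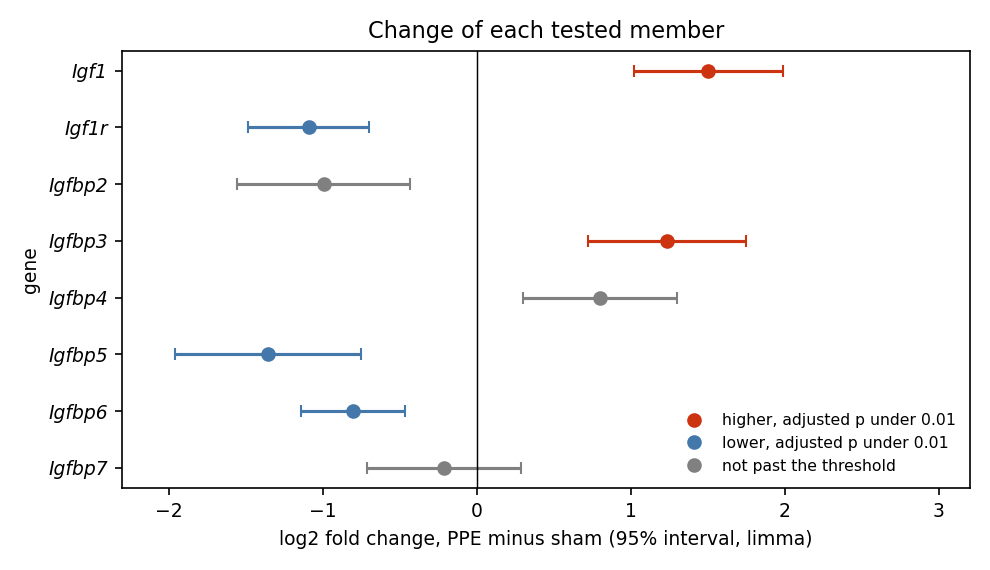
Log2 fold change (x axis, PPE minus sham) of the 8 tested genes (y axis) with its 95% interval from limma, red for higher, blue for lower and grey for not past the threshold. Igf1 (1.50) and Igfbp3 (1.24) lie to the right of 0, Igfbp5 (-1.36), Igf1r (-1.09) and Igfbp6 (-0.80) to the left, with the last turning to 0.08 under median centring.

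Igfbp3, the main carrier of IGF1 in blood, was the binding protein that rose. Its probe (chr11:7106594-7106653, mm9) read 0.99, 0.31, 0.88, 0.31 and 0.13 in sham 1 to 5 and 2.43, 1.86, 1.71, 1.58 and 1.22 in PPE 1 to 5. Every PPE value was above every sham value, and sham 1 and sham 3 were the high sham arrays. The means were 0.52 ± 0.38 and 1.76 ± 0.45 (SD, n = 5 each), a log2 fold change of 1.24 (SE 0.23, 95% interval 0.72 to 1.75, limma adjusted p = 0.00163, exact permutation p = 0.00794). It was 1.16 within slide 1 and 1.05 within slide 2. The reference channel rose too, with 1.55 in red and 0.31 in green. The aorta signal was low in sham, with red intensities over background of 28 to 290, against 114 to 2558 in PPE. It was well above background on all 10 arrays.

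Igfbp4, a carrier that is cut by the protease PAPP-A, did not pass the threshold. It read 1.18, 0.70, 0.59, 0.75 and 1.08 in sham 1 to 5 and 1.85, 2.13, 1.67, 1.86 and 0.80 in PPE 1 to 5. PPE 5 stood within the sham range and the other 4 PPE arrays above it. The log2 fold change was 0.80 (SE 0.23, 95% interval 0.30 to 1.30, limma adjusted p = 0.0168, exact permutation p = 0.0238). Without PPE 5 it was 1.02 with a limma adjusted p of 0.000386. With all arrays it passed on the deposited log ratios (0.70, adjusted p = 0.00697), so the miss depended on the processing too.

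Igfbp5, a binding protein that also attaches to the extracellular matrix, had the steepest fall among the 8 genes. Its probe (chr1:72904829-72904888, mm9) read 4.92, 4.63, 3.95, 4.65 and 4.58 in sham 1 to 5 and 2.77, 4.07, 2.71, 2.83 and 3.56 in PPE 1 to 5. The groups met, since PPE 2 at 4.07 lay above sham 3 at 3.95. The means were 4.55 ± 0.36 and 3.19 ± 0.60 (SD, n = 5 each), a log2 fold change of -1.36 (SE 0.27, 95% interval -1.96 to -0.75, limma adjusted p = 0.00243, exact permutation p = 0.0159). Within slide 1 it was -1.50 and within slide 2 it was -1.52. The same arrays were at the ends of the smooth muscle marker ranges, PPE 2 being the highest PPE array (2.89) and sham 3 the lowest sham array (3.35). They held the same ends for the fibroblast (4.42 and 2.63), endothelial (3.37 and 2.21) and adipocyte markers (5.32 and 4.90). The other marker lists did not share both ends. The part of these marker levels in the Igfbp5 values was not tested.

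Igfbp6, which prefers IGF2 to IGF1, was lower in every PPE aorta than in any sham aorta. Its probe (chr15:101979852-101979911, mm9) read 1.03, 0.94, 0.77, 0.80 and 1.36 in sham 1 to 5 and 0.12, 0.11, 0.12, -0.08 and 0.62 in PPE 1 to 5. PPE 5 was the high PPE array, still below the lowest sham array. The means were 0.98 ± 0.24 and 0.18 ± 0.26 (SD, n = 5 each), a log2 fold change of -0.80 (SE 0.15, 95% interval -1.14 to -0.47, limma adjusted p = 0.0017, exact permutation p = 0.00794), which turned to 0.08 when arrays were centred on their medians in place of loess. It was -0.91 within slide 1 and -0.84 within slide 2.

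Igfbp2, a binding protein of the same chromosome whose probe lay 6092 bases from that of Igfbp5, missed the threshold with groups that did not overlap. It read -1.73, -1.53, -1.80, -1.45 and -1.77 in sham 1 to 5 and -3.37, -3.27, -2.06, -2.46 and -2.10 in PPE 1 to 5. PPE 1 and PPE 2, which shared slide 1, lay below the other 3 PPE arrays. The log2 fold change was -0.99 (SE 0.26, 95% interval -1.55 to -0.43, limma adjusted p = 0.0103, exact permutation p = 0.00794), and it was -1.58 within slide 1 and -0.59 within slide 2. The second Igfbp2 probe (chr1:72898813-72898872, mm9) gave -0.74 with a limma adjusted p of 0.0472 over probes and the same low PPE 1 and PPE 2.

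Igfbp7, a related protein that binds IGFs weakly, read 0.70 to 1.61 in sham and 0.30 to 1.44 in PPE. The groups overlapped almost wholly, with a log2 fold change of -0.21 (SE 0.23, 95% interval -0.71 to 0.29, limma adjusted p = 0.527, exact permutation p = 0.452). Its reference signal was well above background on 4 arrays only. The aorta signal was dim too, with red intensities over background of 14 to 163, and was not well above background in PPE 5. The Igfbp1 probe (chr11:7102442-7102501, mm9), for a protein made mainly by the liver, was not well above background in either channel on any array and was not tested.

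Other genes of the pathway were taken from a list of 56, of which 50 were tested, 6 were higher, 8 were lower and 36 did not pass. Over all names 13.8% were higher, 9.96% lower and 23.8% either, and the list is read against these shares, to which its total is near. Without PPE 1 the count lower was 5. The median log2 fold change of the list was -0.08, against 0.02 over all names. With median centring in place of loess none of the 14 calls passed, and most fold changes moved by over 1.5 times. The lower genes then stood at -0.24 (Stc2), -0.33 (Irs1), -0.68 (Htra1), -0.83 (Grb14), -0.95 (Irs2) and -1.27 (Kazald1), and of the higher genes Igf2r stood at 1.32, Htra2 at 1.54, Grb2 at 1.67 and Igf2bp2 at 1.29, where the median of all names was 0.41. Untested were Ins1, Gh, Stc1, Igfbpl1, Foxo4 and Igf2bp3.

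Among 5 tested ligands and receptors, Igf2r, which carries IGF2 to the lysosome, rose by 0.70 (limma adjusted p = 0.00168). Its log2 ratio was 0.11 to 0.51 in sham and 0.79 to 1.31 in PPE. The other ligand Igf2 changed by -0.08 (adjusted p = 0.75) and the insulin receptor Insr by -0.46 (adjusted p = 0.164), neither past the threshold. Further Insr probes gave -0.21 and -0.73 (limma adjusted p = 0.538 and 0.0111 over probes). Of 7 tested growth hormone axis genes 1 was called, Jak2, the kinase that acts below the growth hormone receptor and many cytokine receptors, which was higher by 1.40 (adjusted p = 9.8e-06). The growth hormone receptor Ghr stood at -0.59 (adjusted p = 0.0714), and a second Ghr probe at -0.69, just outside the threshold (limma adjusted p = 0.0109 over probes).

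The partners and proteases of the binding proteins had 1 of 8 higher and 2 of 8 lower. Htra1, a secreted serine protease that cuts IGF-binding proteins, fell by 1.57 on the log2 scale (limma adjusted p = 0.000993), with 1.74 to 2.45 in sham and -0.24 to 1.50 in PPE. Htra2 belongs to the list by family only, being a mitochondrial protease, and it rose by 0.83 (adjusted p = 4.2e-05). Stc2, a stanniocalcin that inhibits PAPP-A, was lower by 0.81 (log2 fold change -0.81, adjusted p = 0.00505), a call lost without any one of 4 arrays (sham 2, sham 3, PPE 1 or PPE 2; adjusted p up to 0.0139). Pappa itself stood at 0.36 (adjusted p = 0.0259). Of 3 tested proteins with an IGFBP-type domain, Kazald1 fell by 1.98 on the log2 scale (adjusted p = 2.1e-05), with 0.60 to 1.46 in sham and -1.20 to -0.27 in PPE. Esm1, an endothelial proteoglycan, was higher by 1.09 (adjusted p = 0.00675), a call lost on leaving out any one of 7 arrays (all but sham 5, PPE 4 and PPE 5; adjusted p up to 0.0201). The Esm1 call was also lost in 6 of 14 other settings, the deposited log ratios and value table among them.

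Downstream of the receptor, the adaptors Irs1 and Irs2 fell, and Irs3 and Irs4 did not pass the threshold. Irs1 changed by -0.995 (limma adjusted p = 0.00134), with 1.03 to 1.48 in sham and -0.33 to 0.81 in PPE. A second, dimmer Irs1 probe gave -0.67 and did not pass (limma adjusted p = 0.0225 over probes). Its groups overlapped, with -0.12 to 0.64 in sham and -0.75 to 0.03 in PPE. Irs2 changed by -1.69 (adjusted p = 0.00178), with -0.64 to 1.06 in sham and -1.89 to -1.06 in PPE. On the representative probes the groups were apart for both genes. Grb14, an adaptor that restrains insulin receptor signalling, changed by -1.44 (adjusted p = 0.000338). Grb2, which links many receptors to RAS, rose by 1.05 (adjusted p = 7e-05). In all, 1 of 10 adaptors was higher and 3 were lower.

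On their representative probes, 2 of 15 tested genes of PI3 kinase, AKT and below were lower and none higher. Akt2 was lower by a log2 fold change of -0.71 (limma adjusted p = 0.00629) and Eif4ebp1, the translation inhibitor under mTOR, by one of -0.70 (adjusted p = 0.00845), and under median centring these turned to 0.07 and 0.14. The Akt2 call was lost without any one of 6 arrays (sham 1, sham 2, sham 4, PPE 1, PPE 3 or PPE 4; adjusted p up to 0.0188), and the Eif4ebp1 call without any one but sham 2 or sham 5 (adjusted p up to 0.0239). In other settings the Akt2 call was lost in the red channel alone and in 2 more, and the Eif4ebp1 call in 6 of 14, the deposited log ratios and value table among them. Akt1 stood at -0.03 (adjusted p = 0.904) and Mtor at -0.81, just outside the threshold (adjusted p = 0.0101). Gsk3b did not pass on its representative probe (-0.32, adjusted p = 0.366). A dimmer Gsk3b probe gave -0.67 with groups apart and did pass (limma adjusted p = 0.00138 over probes). Another gave -0.50 and did not (limma adjusted p = 0.0535 over probes). Of the mRNA-binding proteins named for Igf2, Igf2bp2 was higher by 0.81 (adjusted p = 0.00342), a call lost without sham 4, PPE 3 or PPE 4 (adjusted p up to 0.0112).

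**Figure D4:**
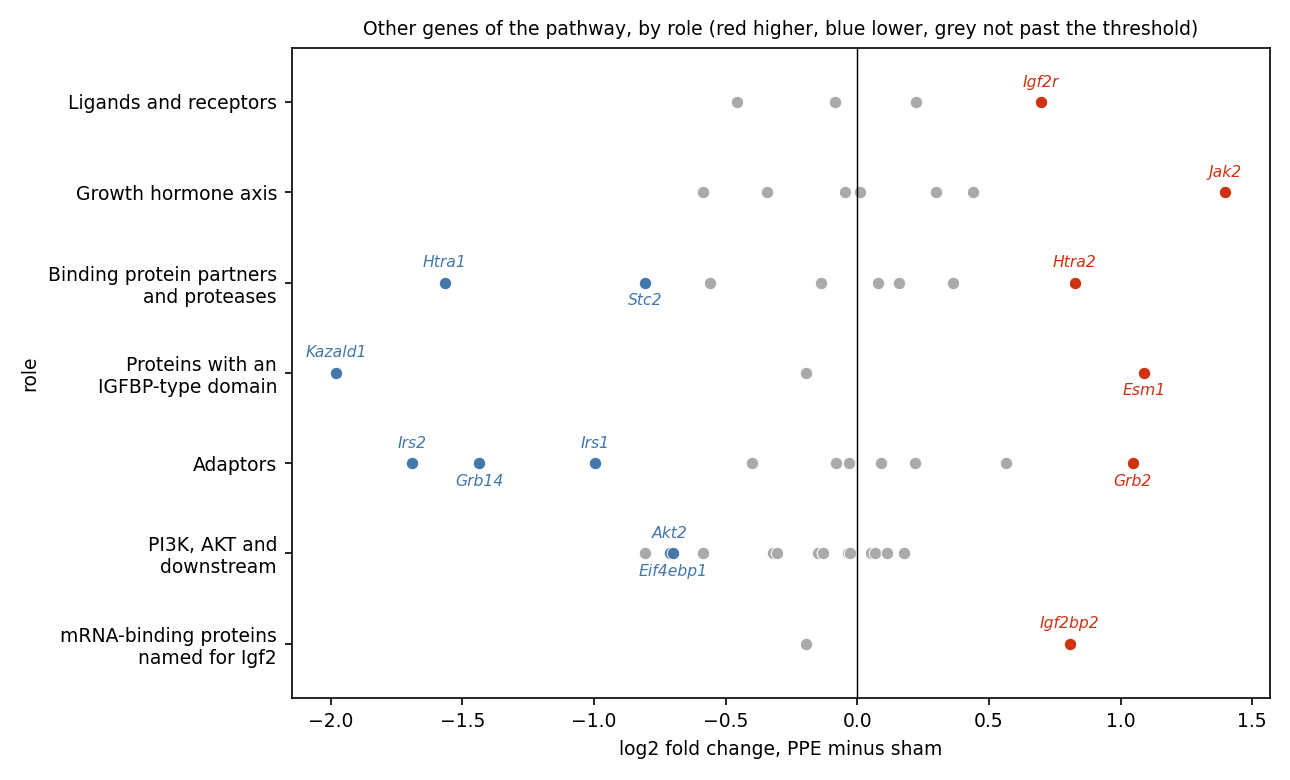
Log2 fold change (x axis, PPE minus sham) of the 50 tested pathway genes by role (y axis), 1 point per gene, red for the 6 higher, blue for the 8 lower and grey for the 36 not past the threshold. Points of both colours appear in the roles of binding protein partners, IGFBP-type domain and adaptors, and the blue points of Akt2 and Eif4ebp1 turn to 0.07 and 0.14 under median centring.

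The genes whose pattern over the 10 arrays was nearest to each called gene were sought among 10590 names above background on all arrays, by the root-mean-square difference of centred log2 ratios. For Igf1 they were Ly6e (0.167) and Rab3il1 (0.17). For Igf1r they were Camk2b (0.0765) and Zfhx3 (0.107), and for Igfbp3 Tm6sf1 (0.162) and Trpv2 (0.205). For Igfbp5 the nearest were Itga7 (0.23) and Cobll1 (0.231), and for Igfbp6 Irak1bp1 (0.0757) and Bnip2 (0.135).

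**Figure D5:**
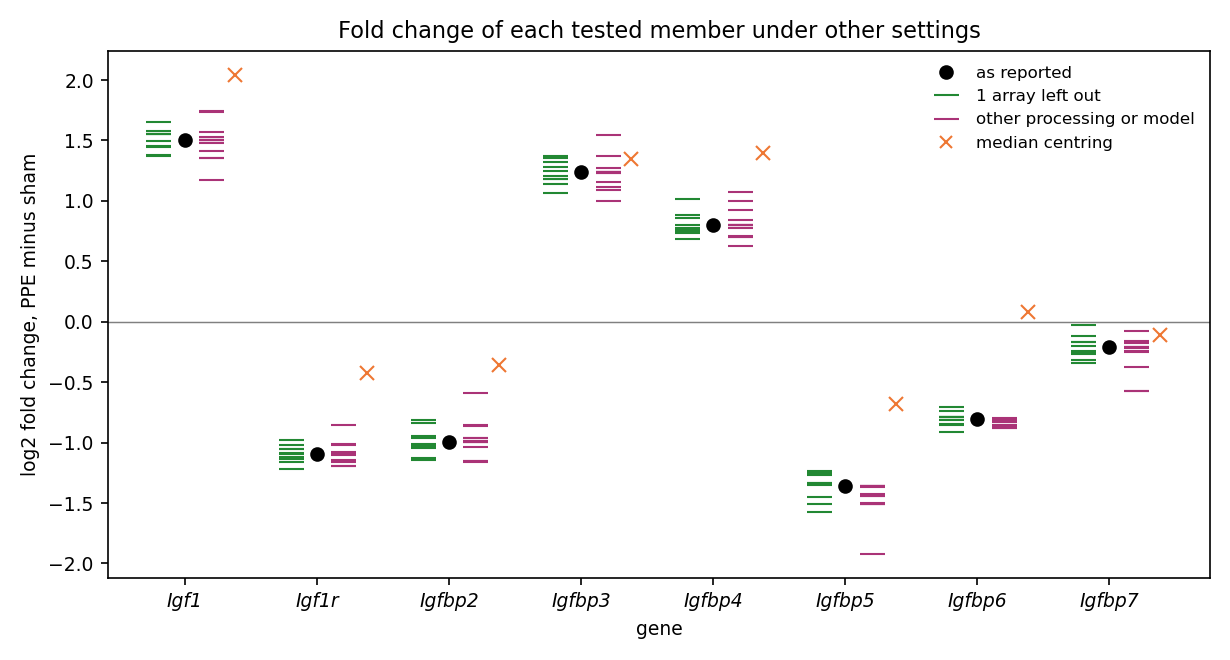
Log2 fold change (y axis, PPE minus sham) of the 8 tested genes (x axis) as reported (black points), with 1 array left out (green dashes), under other processing or models (purple dashes) and with median centring in place of loess (orange crosses). Under median centring Igf1 moves to 2.04 and Igfbp6 to 0.08, past 0, while in the other settings each of the 8 genes keeps its direction.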

How the data were processed

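Gene expression was measured in 10 infrarenal mouse aortas on 2-colour Agilent arrays of 62976 spots, with 500 ng of un-pooled RNA per aorta. The deposited scanner files, made with Agilent Feature Extraction 10.7.3.1 according to their headers, hold the mean and background intensity of each spot in both channels and the log10 ratio of red over green that the authors' software computed. The deposited value table held log2 ratios, which equalled the log2 ratio of processed red over green on 100% of spots within a tolerance of 1e-04, with array medians of -0.160 to 0.123. The study's methods state that poorly hybridised arrays and outliers were left out of its own analysis, without saying whether before deposit.

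Intensities were background-corrected by normexp with an offset of 50 and normalised within arrays by loess in limma 3.58.1 (R 4.3.3), with control spots and outlier spots (176 to 331 per array) at weight 0. Spots of a probe were averaged. Probes entered the test if at least 5 of 10 arrays showed them well above background in red, and the brightest tested probe stood for a gene name. PPE was compared with sham by limma (lmFit, eBayes) over all 22520 names, without covariates, with Benjamini-Hochberg adjustment and a threshold of 0.01 after the study's false discovery rate. Per-probe values came from the same model fitted over 30836 probes. Single genes also had a two-sided exact permutation test. Each array held 1 aorta, so n counts mice, and the number of arrays limits the precision. The code was tested on simulated data.

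The genes and lists were chosen with earlier results of these data known, and 2 genes of the pathway list are not reported here. Named genes were all 9 of the axis, all pathway genes past the threshold and the 2 closest patterns of each called gene. The pathway genes named without passing (Igf2, Insr, Ghr, Pappa, Irs3, Irs4, Akt1, Mtor, Gsk3b) were chosen after their values were seen. The significance analysis of microarrays (SAM) named in the study's methods was written anew with 100 relabellings as an alternative, beside other offsets, normalisations, filters, slide and replicate blocks, and single arrays left out. Promoters came from RefSeq (GRCm38.p6), with a window for all 9 genes.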

Additional observations from a re-analysis of the deposited data

Results flagged for a closer look

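In the 28 groups of 5 arrays checked for a sample far from the others (14 probes in 2 groups), 1 was marked, where chance alone marks about 5%. It was Igfbp6 in PPE 5, at a log2 ratio of 0.617 with the next PPE array at 0.121. Without PPE 5 the Igfbp6 call remained.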

How the results depend on the processing

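The 5 called genes of the axis kept their calls in all 10 fits that left out 1 array, with log2 fold changes of 1.37 to 1.66 for Igf1, -1.22 to -0.98 for Igf1r, 1.07 to 1.37 for Igfbp3, -1.58 to -1.24 for Igfbp5 and -0.91 to -0.71 for Igfbp6. Igfbp2 ranged from -1.14 to -0.81 and was called without PPE 3 or PPE 5, Igfbp4 from 0.69 to 1.02 and was called without PPE 5, and Igfbp7 from -0.34 to -0.03. Counts ranged over these fits from 2512 to 3615 names higher and 1754 to 2352 lower, 2 to 3 and 3 to 4 axis genes, and 4 to 6 and 5 to 10 pathway genes, 5 being the count lower without PPE 1. Median centring in place of loess left 408 names higher and 8 lower and 0 axis or pathway genes in either direction. It gave 2.04 for Igf1 (limma adjusted p = 0.103), -0.42 for Igf1r (0.725), 1.34 for Igfbp3 (0.162), -0.68 for Igfbp5 (0.554) and 0.0772 for Igfbp6 (0.937), and the cause was not tested. Scale normalization between arrays left 1 axis gene higher, as Igfbp3 at 0.999 (adjusted p = 0.0154) and Igfbp5 at -1.92 (0.0225) lost their calls. SAM called 4875 names higher and 3263 lower and added Igfbp2 and Igfbp4.

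Igfbp2 passed with an offset of 10 (-1.04, limma adjusted p = 0.0078), the deposited log ratios or value table (-1.15 each, 0.0079), the filter on all 10 arrays (-0.99, 0.00733) and slide as a random block (-0.96, 0.00292). It missed with scale normalization (-0.59, 0.224), median centring (-0.36, 0.628) and the mean of its probes (-0.87, 0.0212). It also missed with no filter on dim probes (-0.99, 0.0177), the replicate block (-0.99, 0.0142) and slide as a fixed block (-0.99, 0.0113). Igfbp4 passed with the deposited log ratios or value table (0.70 each, 0.00697), slide as a fixed block (0.995, 0.000956) and slide as a random block (0.85, 0.00282). It missed with others, among them median centring (1.40, 0.265), scale normalization (0.63, 0.0295) and the replicate block (0.80, 0.0285). After seeing the data 3 settings were added. With scan day as a block Igfbp2 passed (-0.85, 0.00379). In the red channel alone Igfbp2 passed (-0.96, 0.00518) and Igf1r did not (-0.85, 0.0353). Without both sham 5 and PPE 5 Igfbp2 (-1.16, 0.00842) and Igfbp4 (1.07, 0.000495) passed. Igfbp7 has no value under the filter on all 10 arrays, where its probe was dropped.

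The replicate numbers were not treated as pairs. The deviations of the 5 same-number pairs had correlations of -0.30 to 0.52, with 3 of them over 0.1. Only 1 sham array correlated best with its own number. These values do not settle whether the numbers mark pairs. With the replicate block 3022 names were higher and 2283 lower, and 2 axis genes were higher and 3 lower, the same 5 genes. Of the pathway genes 6 were higher and 8 lower, without Akt2, whose call was lost.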
